A study of Mus musculus with 38 samples.

Results

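The tRNAs that carry the aromatic amino acids, tRNA-Phe-GAA for phenylalanine, tRNA-Tyr-GTA for tyrosine and tRNA-Trp-CCA for tryptophan, were followed as fragments in sperm of 38 male mice. They are 3 of the 54 tRNA isoacceptors that had reads in these libraries, and they were taken by name, as every tRNA row that matched the genome and was listed under phenylalanine, tyrosine or tryptophan. An isoacceptor is a tRNA species defined by its amino acid and its anticodon, the last 3 letters of the name. The 3 isoacceptors held 33756 of the 29641681 tRNA reads, or 0.114%. Of these reads, 17325 were assigned to tRNA-Trp-CCA, 8475 to tRNA-Phe-GAA and 7956 to tRNA-Tyr-GTA.

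A tRNA reads a codon through its anticodon and delivers the matching amino acid to the ribosome. Cut tRNAs yield stable small RNAs, and mature mouse sperm is known for its abundant fragments from the 5' side of tRNAs, above all of glycine and glutamate tRNAs. Phenylalanine and tryptophan must come from dietary protein, whereas tyrosine can be made from phenylalanine. Every mature tRNA ends in the bases CCA, which mouse tRNA genes do not encode and which an enzyme adds after transcription.

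The mice were C57BL/6J males, and the 4 groups are named by the diet before weaning, given to the dam from conception to day 21, followed by the diet of the male itself from weaning until it was killed. CT is the control diet with 20% protein and PR the protein-restricted diet with 8%. The CTCT group (10 mice) had control diet throughout, the CTPR group (9 mice) was restricted only after weaning, the PRCT group (9 mice) only before weaning and the PRPR group (10 mice) throughout. Male offspring of 1 dam were divided between the post-weaning diets, and both post-weaning diets were present among the males of 8 CT litters and of 9 PR litters. Sperm was collected from the epididymis by letting it swim out, and small RNA libraries of inserts between 13 and 73 bases were sequenced. For the littermates 47I1 and 47I2 the sample labels give CTCT and CTPR, whereas the study's list of mice gives the opposite. The labels were followed here.

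Between 4465281 and 7612603 reads per mouse matched the genome. All 8 germ line miRNAs used as sperm markers had reads in at least 35 of the 38 mice, with a summed level between 24.6 and 1669 RPM, which are reads per 1000000 reads that matched the genome. The 5 miRNAs of epididymal epithelium were also present in every mouse (34.2 to 2227 in sum), as were the 2 of smooth muscle (62.3 to 8098). The liver marker mir-122 was at 0 in 19 mice and reached at most 3.603 RPM. In bulk samples such as these, fewer cells of a type and less RNA per cell cannot be told apart. In 4 mice (35F2, 47I1, 08G5 and 31A3) the class totals in the files do not add up to the reads that matched the genome, and for tRNA the sum of the isoacceptor rows was used in place of the listed total.

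By the RefSeq annotation of the mouse assembly mm10, 25 genes encode the 3 isoacceptors, and 10 of them lie on chromosome 13. Whether they lie between or inside other genes was taken from the GENCODE annotation. For tRNA-Phe-GAA there are 7 genes of 73 bases, all between genes, among them n-TFgaa4 at chr13:21161405-21161477 and n-TFgaa1 at chr13:21882885-21882957. The 8 genes of tRNA-Trp-CCA are 72 bases long and all lie between genes, with 4 on chromosome 11 and the neighbours n-TWcca3 (chr13:23498106-23498177) and n-TWcca4 (chr13:23506519-23506590) on chromosome 13. The 10 genes of tRNA-Tyr-GTA are 86 to 93 bases long, and tyrosine tRNA genes are known to carry an intron that is spliced out. Of these, 6 form a group on chromosome 13 that starts with n-TYgta3 at chr13:23425646-23425734. Only 2 of the 25 genes lie inside another gene, both in introns, n-TYgta1 (chr3:19628355-19628447) in 1700064H15Rik and n-TYgta6 (chr13:23428738-23428826) in C230035I16Rik. The counts are per isoacceptor and do not tell these gene copies apart.

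Among the 54 isoacceptors, ordered by mean level in RPM, tRNA-Trp-CCA ranked 27, tRNA-Phe-GAA 37 and tRNA-Tyr-GTA 38. Per mouse, tRNA-Trp-CCA had between 59 and 2420 reads, tRNA-Tyr-GTA between 29 and 692 and tRNA-Phe-GAA between 7 and 667. All 3 were thus detected in every mouse, but tRNA-Phe-GAA from few reads in some. To compare the 3 with each other, levels were divided by the mean length of the genes. For tRNA-Tyr-GTA this length (89.1 bases) includes the intron, which lowers its level on this scale relative to the spliced tRNA. Per 100 bases of gene, the level was 97.9 ± 74.2 RPM (SD, n = 38 mice) for tRNA-Trp-CCA, 47.2 ± 35.7 for tRNA-Phe-GAA and 36.5 ± 24.01 for tRNA-Tyr-GTA. On this per-length scale, tRNA-Trp-CCA was above tRNA-Phe-GAA in 38 of 38 mice (mean log2 ratio 1.31, SE 0.12, two-sided sign-flip permutation test, P = 1e-05, adjusted P = 1.5e-05) and above tRNA-Tyr-GTA in 37 of 38 (mean log2 ratio 1.44, SE 0.12, P = 1e-05, adjusted P = 1.5e-05). This P is the smallest that 100000 permutations can give. The SE and P of these orders, here and below, treat littermates as independent mice. The neighbours tRNA-Phe-GAA and tRNA-Tyr-GTA were not told apart on this scale, where tRNA-Phe-GAA was the higher one in 25 of 38 mice (mean log2 ratio 0.13, SE 0.13, permutation test, P = 0.321). Both orders that involve tRNA-Tyr-GTA depend on the gene length used, and they were not tested at the length of the spliced tRNA. Reads with the CCA end form a separate class and are left out of these levels and ranks. Over all mice, tRNA-Tyr-GTA had 5473 CCA reads that matched the genome and 7037 that did not. tRNA-Phe-GAA had 4638 that matched, and tRNA-Trp-CCA had 17796 that did not. The orders were not tested with CCA reads included.

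The 3 isoacceptors differed in the end of the tRNA from which their reads came. Besides the row of the whole isoacceptor, the files list the reads that were annotated as 5' end or 3' end fragments, and the rest carry neither name. Over all mice, 55.3% of the tRNA-Tyr-GTA reads were 5' end fragments (95% exact binomial interval 54.2 to 56.4%, counting error only), against 1.96% (1.67 to 2.28%) for tRNA-Phe-GAA and 1.22% (1.07 to 1.40%) for tRNA-Trp-CCA. In every one of the 38 mice the 5' share of tRNA-Tyr-GTA lay above that of each of the other two. For tRNA-Phe-GAA and tRNA-Trp-CCA, 88.9% and 90.3% of the reads were named for neither end, and 9.14% and 8.48% were 3' end fragments. For tRNA-Tyr-GTA, 3' end fragments made up 1.23% of the reads and were at 0 in 21 mice. Fragments with the CCA end, which also come from the 3' side, form a separate class and are not counted in these shares. For tRNA-Tyr-GTA, 5473 matched and 7037 unmatched CCA reads stood beside 98 reads in the 3' end row. The shares thus do not show how 5' and 3' fragments compare when CCA ends are included.

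All tRNA reads together were mainly 5' end fragments, with a mean share of 85.2% over the mice (78.5 to 91.2%). Each of the 3 aromatic isoacceptors lay below the share of all tRNA in 38 of 38 mice. Among 38 isoacceptors that could be ranked by their median 5' share, starting from the lowest, tRNA-Trp-CCA was at place 7, tRNA-Phe-GAA at place 9 and tRNA-Tyr-GTA at place 29. The isoacceptor at place 36 had a median of 78.2%. A median below the mean share of all tRNA was thus common to most of the ranked isoacceptors and not particular to the aromatic ones. Another limit applies to these shares. For 7 other isoacceptors, the 5' or 3' rows exceed the row of the whole isoacceptor, in 13 mice (tRNA-Pro-AGG) up to all 38 (such as tRNA-Gly-CCC). The 5' rows of these isoacceptors also enter the share of all tRNA. How the end rows were assigned is not given in the sources used here. Such an excess was never seen for the 3 aromatic isoacceptors, and whether some of their 5' reads were listed under another isoacceptor was not tested.

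**Figure D1:**
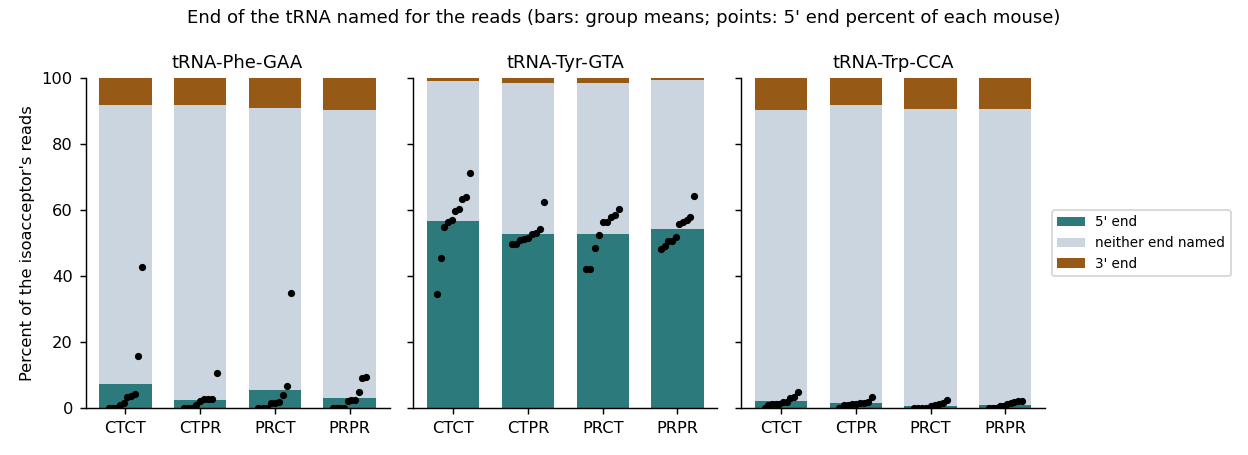
Composition of the reads of each aromatic isoacceptor by the end named in the files (y axis, percent of the isoacceptor's reads). Bars are group means in the 4 diet groups and black points are the 5' end percent of each mouse. Fragments with the CCA end are a separate class and are not included. The points of tRNA-Tyr-GTA lie between 34.5 and 71.4%, whereas most of those of tRNA-Phe-GAA and all of those of tRNA-Trp-CCA lie below 5%, with 42.9% and 35.0% in 2 mice for tRNA-Phe-GAA.

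The 5' end share of tRNA-Phe-GAA was 7.19% ± 13.4 (SD) in CTCT (lowest 0, median 2.33, highest 42.9%), 2.42% ± 3.27 in CTPR, 5.58% ± 11.2 in PRCT and 2.99% ± 3.63 in PRPR. It was at 0 in 13 of the 38 mice, and the 2 highest values rested on 3 of 7 reads (mouse 07C3) and 7 of 20 reads (mouse 14A4). The mean of tRNA-Phe-GAA was 3.23% ± 4.93 in CTCT without 07C3, 1.90% ± 2.32 in PRCT without 14A4 and 1.41% ± 1.30 in CTPR without 02A8. The share of tRNA-Tyr-GTA was 56.7% ± 10.3 in CTCT (lowest 34.5, median 58.5, highest 71.4%), 52.9% ± 3.90 in CTPR, 52.8% ± 6.97 in PRCT and 54.2% ± 4.99 in PRPR. The groups overlapped widely for both isoacceptors. For tRNA-Trp-CCA the share was 1.95% ± 1.42 in CTCT (lowest 0, median 1.52, highest 4.89%), 1.36% ± 0.872 in CTPR, 0.698% ± 0.788 in PRCT (lowest 0, median 0.471, highest 2.27%) and 0.996% ± 0.857 in PRPR. The difference between the PRCT and the CTCT group had the smallest P of 12 comparisons (two-sided exact permutation test, P = 0.0281), but did not pass after adjustment over the 12 (P = 0.337). None of the other 11 passed either, with adjusted P of at least 0.510.

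Fragments that carry the added CCA end are listed in a class of their own, separately for reads that match the genome and reads that do not. The 3 isoacceptors differed in this too. tRNA-Phe-GAA had 4638 CCA reads that matched the genome and 0 that did not, tRNA-Trp-CCA had 0 that matched and 17796 that did not, and tRNA-Tyr-GTA had 5473 that matched and 7037 that did not. Relative to the reads that matched the genome, the mean level of these CCA fragments over all mice was 18.9 RPM for tRNA-Phe-GAA, 73.1 for tRNA-Trp-CCA, and 22.1 (matched) and 28.6 (unmatched) for tRNA-Tyr-GTA. The CCA reads exceeded the 3' end row in 37 of 38 mice for tRNA-Phe-GAA and in 38 of 38 for tRNA-Trp-CCA. For tRNA-Trp-CCA they exceeded even the row of the whole isoacceptor, which counts matched reads only, in 24 mice. For tRNA-Tyr-GTA the unmatched CCA reads outnumbered the matched ones in 37 of 38 mice.

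The first question on diet was whether restriction after weaning, before weaning or throughout went with another amount of these fragments than control diet throughout. These 3 comparisons share the CTCT mice and are not independent of each other. Amounts are given in RPM. For tRNA-Phe-GAA, the lowest, median and highest values were 1.08, 28.7 and 65.0 in CTCT, 5.38, 49.0 and 81.5 in CTPR, 3.48, 26.9 and 87.6 in PRCT and 5.94, 23.4 and 79.1 in PRPR. The means were 28.9 ± 21.5 (SD), 50.7 ± 29.7, 28.01 ± 25.9 and 31.2 ± 24.4. The CTPR group thus had the highest mean, but its range overlapped that of every other group.

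For tRNA-Tyr-GTA, the lowest, median and highest values were 5.42, 25.5 and 71.7 in CTCT, 9.35, 52.2 and 101.387 in CTPR, 11.4, 24.3 and 39.0 in PRCT and 9.04, 23.0 and 56.4 in PRPR. The means were 29.7 ± 21.9, 49.7 ± 26.7, 23.9 ± 10.4 and 27.5 ± 16.3. The median of the CTPR group lay above every PRCT mouse, although the CTPR and the CTCT groups overlapped.

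For tRNA-Trp-CCA, the lowest, median and highest values were 9.14, 48.5 and 104.302 in CTCT, 28.8, 91.1 and 142.347 in CTPR, 23.1, 61.8 and 317.894 in PRCT and 23.2, 53.9 and 122.365 in PRPR. The means were 52.3 ± 28.4, 87.6 ± 35.0, 75.9 ± 92.7 and 68.4 ± 38.9. The mean and SD of the PRCT group rested on mouse 59L1, without which they were 45.6 ± 20.5 (n = 8 mice).

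**Figure D2:**
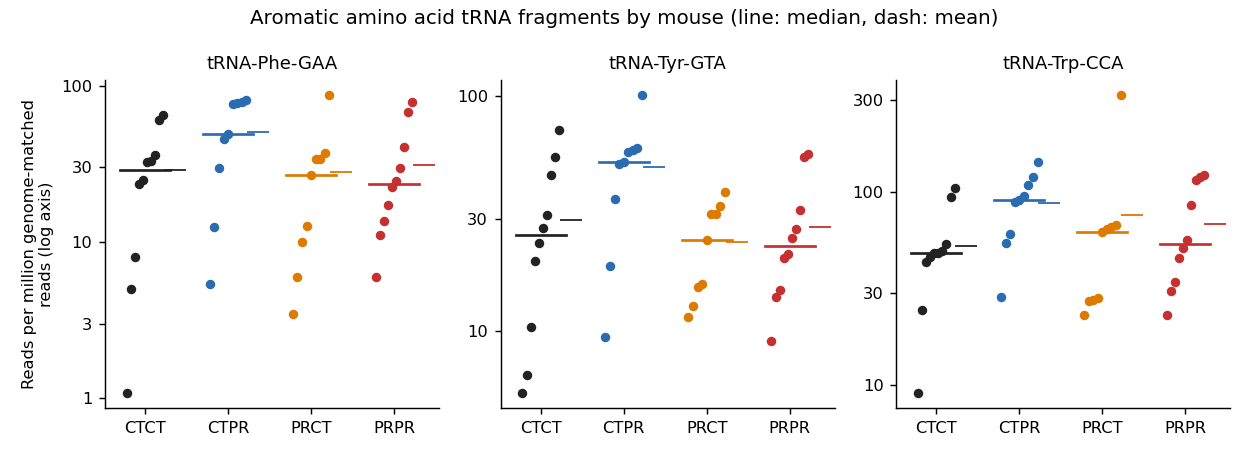
Level of each aromatic isoacceptor in each mouse, in RPM (reads per 1000000 reads that matched the genome, y axis, log scale), by diet group. Points are mice, the horizontal line is the group median and the dash at the right is the group mean. The CTPR group has the highest median for all 3 isoacceptors, with ranges that overlap those of every other group, and 1 PRCT mouse stands at 317.894 for tRNA-Trp-CCA.

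In the edgeR fit of all 54 isoacceptors, the level in CTPR relative to the CTCT group was 1.76-fold for tRNA-Phe-GAA (95% interval 0.900 to 3.42, log2 fold change 0.81, SE 0.48, adjusted P = 0.186), 1.68-fold for tRNA-Trp-CCA (0.943 to 2.99, log2 fold change 0.75, SE 0.41, adjusted P = 0.160) and 1.67-fold for tRNA-Tyr-GTA (0.994 to 2.82, log2 fold change 0.74, SE 0.37, adjusted P = 0.142). None of the 3 passed, before adjustment (P = 0.0964, 0.0769 and 0.0528) or after it. Of all 54 isoacceptors, 0 passed after adjustment and 19 (35.2%) had an unadjusted P under 0.05, all higher in CTPR. DESeq2 with the same library sizes gave 0 and 18. With litter as a block, tRNA-Tyr-GTA was under that threshold (edgeR, P = 0.0254, adjusted P = 0.109), as 1 of 21 such isoacceptors among 52 tested. The median log2 fold change of all 54 isoacceptors was 0.71, and the 3 aromatic values lay just above it.

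Several other measures moved together with the CTPR group, and their part in these differences was not tested. tRNA made up 15.9% ± 5.98 (SD) of the reads that matched the genome in CTPR, against 9.57% ± 4.08 in CTCT, 12.2% ± 6.69 in PRCT and 11.7% ± 4.32 in PRPR. Small nucleolar RNA made up 15.95%, 27.5%, 26.6% and 25.1% in the same order. The summed level of the 8 germ line miRNAs was 938 RPM in CTPR (126 to 1669) and 471 in CTCT (24.6 to 1039). The markers of other cells had higher means as well, with 980 (34.2 to 2227) against 595 (38.9 to 1294) for the 5 miRNAs of epididymal epithelium, and 2762 (70.7 to 8098) against 1408 (62.3 to 3048) for the 2 of smooth muscle. For the 2 miRNAs of red blood cells the means were 13.2 (1.27 to 45.7) and 7.28 (0 to 16.998), whereas the medians were 5.34 and 6.19. The liver marker mir-122 did not go with the CTPR group alone, with means of 0.610 in CTPR, 0.173 in CTCT, 0.614 in PRCT and 0.838 in PRPR.

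The size of the CTPR difference depended on what the reads were counted against. With edgeR's TMM factors computed over the isoacceptors, the log2 fold change was 0.11 for tRNA-Phe-GAA, 0.04 for tRNA-Trp-CCA and 0.03 for tRNA-Tyr-GTA, and the median of all 54 isoacceptors moved from 0.71 to 0.01. With the summed tRNA reads as the library size the 3 values were 0.11, 0.01 and 0.01. Counted against other tRNA fragments, the aromatic ones thus differed little between both groups. Against the genome-matched reads without small nucleolar RNA, the values stayed at 0.61, 0.55 and 0.53 in the same order.

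In the PRCT group, the level relative to the CTCT group was 0.982-fold for tRNA-Phe-GAA (log2 fold change -0.03, adjusted P = 1 with edgeR), 0.805-fold for tRNA-Tyr-GTA (-0.31, adjusted P = 0.968) and 1.47-fold for tRNA-Trp-CCA (0.56, adjusted P = 0.951). None passed, and of all 54 isoacceptors 0 passed after adjustment and 1 (1.85%), tRNA-Ala-TGC, had an unadjusted P under 0.05 (named after its value was seen). DESeq2 also gave 0 and 1. The direction for tRNA-Trp-CCA hung on mouse 59L1, without which its log2 fold change was -0.19, and that of tRNA-Phe-GAA was then -0.49. In the PRPR group the levels were 1.07-fold for tRNA-Phe-GAA (log2 fold change 0.10, adjusted P = 0.927), 0.919-fold for tRNA-Tyr-GTA (-0.12, adjusted P = 0.876) and 1.31-fold for tRNA-Trp-CCA (0.39, adjusted P = 0.876), with 0 of 54 isoacceptors (0%) under an unadjusted P of 0.05 by edgeR and by DESeq2. In neither comparison did a member stand apart from the spread between mice.

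**Figure D3:**
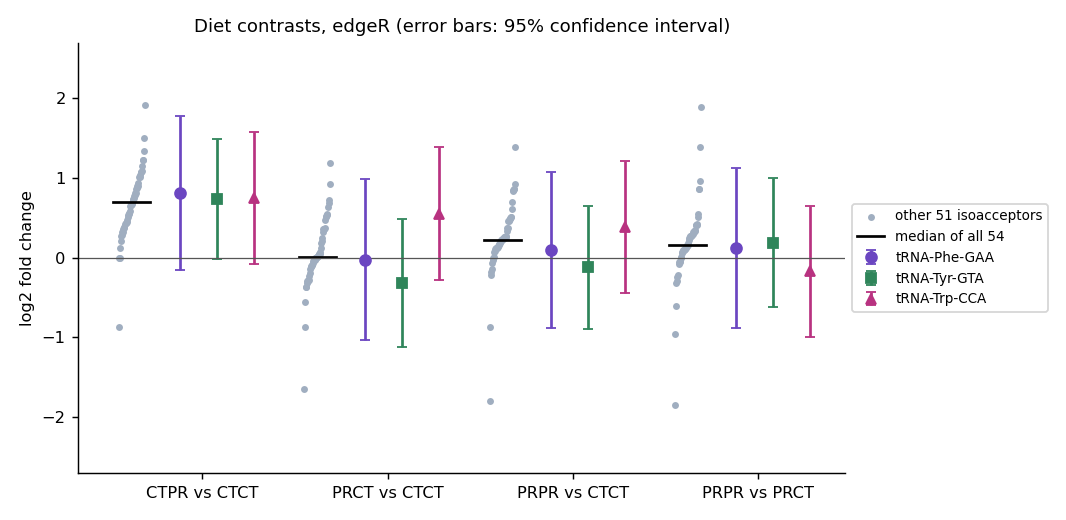
Log2 fold changes (y axis) of the 3 aromatic isoacceptors, as coloured points with 95% intervals, in the 4 diet comparisons. Grey points are the other 51 isoacceptors and the black line is the median of all 54. In the CTPR group the 3 aromatic points lie at 0.74 to 0.81 beside a median of 0.71, and every one of their intervals includes 0.

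The response to restriction after weaning could be compared between mice born to CT and to PR dams. In mice born to PR dams, the level in PRPR relative to the PRCT group was 1.09-fold for tRNA-Phe-GAA, 0.889-fold for tRNA-Trp-CCA and 1.14-fold for tRNA-Tyr-GTA, each with an adjusted P of 0.951. Here too, 0 of 54 isoacceptors (0%) were under an unadjusted P of 0.05 by edgeR and by DESeq2, and with litter as a block 1 of 53 was, tRNA-Ser-GGA (named after its value was seen). Without mouse 59L1, the log2 fold change of tRNA-Trp-CCA turned from -0.17 to 0.58 and that of tRNA-Phe-GAA went from 0.12 to 0.59. The difference between both post-weaning comparisons, tested as an interaction, was 0.92 on the log2 scale for tRNA-Trp-CCA (P = 0.121, adjusted P = 0.496), 0.69 for tRNA-Phe-GAA (adjusted P = 0.648) and 0.55 for tRNA-Tyr-GTA (adjusted P = 0.648). It did not pass for any of them, and of all 54 isoacceptors 0 passed after adjustment, while 2 (3.70%), tRNA-Ala-TGC and tRNA-Gly-GCC, had an unadjusted P under 0.05 (2 by DESeq2 as well). Without mouse 59L1 the interaction was 0.17 for tRNA-Trp-CCA and 0.22 for tRNA-Phe-GAA.

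Other tRNAs that depend on dietary amino acids were described in the same way. In the CTPR against the CTCT group, the 14 isoacceptors of the other large neutral amino acids (leucine, isoleucine, valine, methionine and histidine) had a median log2 fold change of 0.54. Of these, 12 were on the higher side, 1 on the lower, and 5 had an unadjusted P under 0.05. The 10 isoacceptors of lysine, threonine and arginine had a median of 1.05, with all 10 on the higher side and 7 under an unadjusted P of 0.05. The 27 remaining isoacceptors had a median of 0.68, with 26 on the higher side and 7 under 0.05. Over all 54 isoacceptors, 51 were on the higher side and 1 on the lower, 19 (35.2%) were under 0.05, and the median was 0.71. After adjustment none of these isoacceptors passed. tRNA-Gly-GCC, the most abundant isoacceptor with a mean of 65877 RPM, had a log2 fold change of 0.94 (SE 0.38, P = 0.0169, adjusted P = 0.0715). Mitochondrial tRNA, listed as a class of its own, made up 3.23% ± 1.60 of the genome-matched reads in CTCT and 5.34% ± 2.24 in CTPR. It was at 5.64% ± 1.51 in PRCT and 5.07% ± 2.76 in PRPR, so a higher mean than in CTCT was not particular to CTPR.

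When the end fragments were tested as rows of their own, 13 rows of the aromatic tRNAs were among 230 tested. In the CTPR against the CTCT group, all 13 had a log2 fold change above 0, from 0.21 for the 5' end of tRNA-Trp-CCA to 1.33 for the 3' end of tRNA-Tyr-GTA. Of the 54 isoacceptors as a whole, 51 were also above 0 there, and the count over all 230 rows is not given here. The 13 rows overlap, because they include the rows of the whole isoacceptors, which contain the 5' and 3' end rows. Of the 13, 1 had an unadjusted P under 0.05, the unmatched CCA row of tRNA-Tyr-GTA (log2 fold change 0.78, SE 0.39, P = 0.0493, adjusted P = 0.202), where 54 of all 230 rows (23.5%) were higher at that threshold. For tRNA-Phe-GAA the values were 0.49 at the 5' end, 0.66 at the 3' end and 0.75 for the matched CCA row. For tRNA-Trp-CCA they were 0.21, 0.52 and, for the unmatched CCA row, 0.66. Tyrosine had 0.53 at the 5' end and 0.91 in the matched CCA row. In the other 3 comparisons, 0 of the 13 rows had an unadjusted P under 0.05, beside 2.61% of the 230 rows higher and 0.87% lower in PRCT against CTCT, 2.61% higher and 0% lower in PRPR against CTCT, and 0.87% higher and 1.74% lower in the PRPR against the PRCT group. In the interaction it was 0 of 13, beside 3.91% of the 230 rows on the higher side. No row of any tRNA passed after adjustment in any comparison. The unmatched CCA row of tRNA-Trp-CCA, 55.2 ± 32.2 RPM in CTCT, 87.3 ± 25.4 in CTPR, 73.6 ± 35.0 in PRCT and 77.8 ± 43.0 in PRPR, did not share the high value of mouse 59L1, which had 112.051 there.

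As a share of all tRNA reads, the aromatic isoacceptors can be compared without the amount of tRNA in a library. tRNA-Trp-CCA made up 0.0558% ± 0.0214 (SD) of the tRNA reads in CTCT, 0.0559% ± 0.0114 in CTPR, 0.0534% ± 0.0293 in PRCT and 0.0553% ± 0.0167 in PRPR. The group means of tRNA-Trp-CCA lay far closer together than the mice within a group. For tRNA-Phe-GAA the shares were 0.0284% ± 0.0170, 0.0308% ± 0.0167, 0.0196% ± 0.00911 and 0.0237% ± 0.0108, and for tRNA-Tyr-GTA 0.0338% ± 0.0297, 0.0339% ± 0.0195, 0.0216% ± 0.00705 and 0.0227% ± 0.00673, in the same order. Both had lower mean shares in the groups born to PR dams, with differences smaller than the spread. For tRNA-Tyr-GTA, much of the difference from CTCT rested on the CTCT mouse 57P3. Without this mouse it went from -0.0122 to -0.00352 percentage points in PRCT and from -0.0112 to -0.00243 in PRPR. In permutation tests of the 3 isoacceptors in 4 comparisons (exact where a group had 9 mice, 100000 permutations otherwise), none of the 12 passed. The smallest P was 0.183, for tRNA-Phe-GAA in the PRCT against the CTCT group, and every adjusted P was 0.994. In the CTPR against the CTCT group the P values were 0.756 for tRNA-Phe-GAA, 0.991 for tRNA-Tyr-GTA and 0.994 for tRNA-Trp-CCA (exact permutation test).

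**Figure D4:**
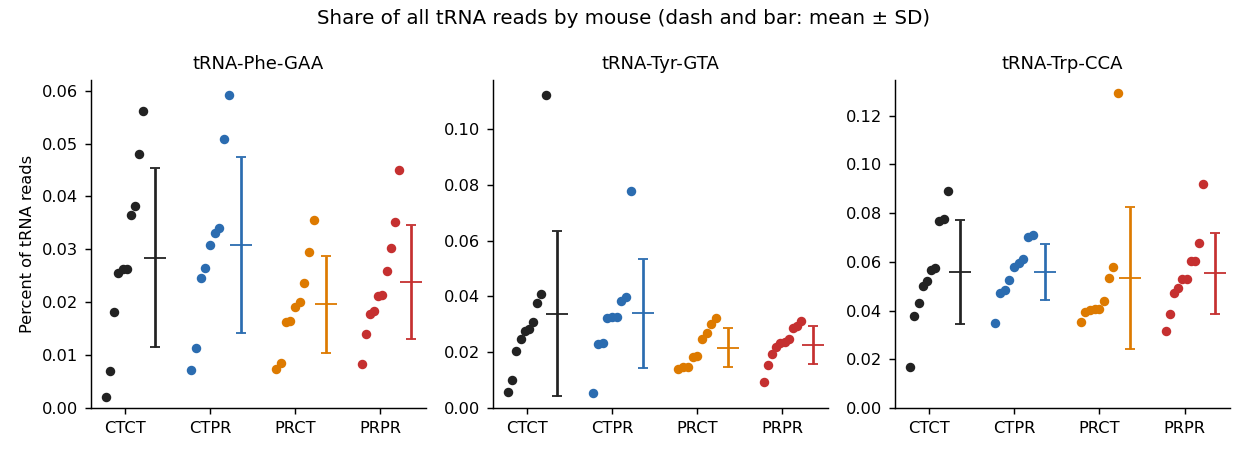
Share of each aromatic isoacceptor in all tRNA reads of a mouse (y axis, percent), by diet group. Points are mice, and the mean with its SD is drawn beside them. The group means of tRNA-Trp-CCA lie between 0.0534 and 0.0559%, and the highest point of tRNA-Tyr-GTA, 0.112%, is a CTCT mouse whose CTPR littermate is the highest of its own group at 0.0779%.

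Littermates share a dam and its diet, so the comparison within litters sets aside what differs between dams. In CT litters, the PR littermate had the higher level of each aromatic isoacceptor in 7 of 8 litters, and 45L was the exception for all 3. In 45L, tRNA as a whole was also lower in the PR littermate, at 11.2% of the genome-matched reads against 16.4%. As a share of tRNA reads, the PR littermate was higher in 4 of 8 litters for tRNA-Phe-GAA, 4 for tRNA-Tyr-GTA and 1 for tRNA-Trp-CCA. The higher levels were thus not particular to the aromatic isoacceptors. The mean difference in log2 RPM was 0.64 for tRNA-Tyr-GTA (SE 0.21, lowest -0.34, highest 1.60), 0.48 for tRNA-Trp-CCA (SE 0.23, lowest -0.79, highest 1.30) and 0.47 for tRNA-Phe-GAA (SE 0.25, lowest -1.01, highest 1.23). By exact sign-flip permutation tests, which with 8 litters cannot give a P below 0.0078125, P was 0.0234, 0.0703 and 0.117 in that order. Adjusted over 6 comparisons (3 isoacceptors in CT and in PR litters) these became 0.141, 0.211 and 0.234, and none passed. With the opposite grouping of litter 47I, the PR littermate was higher in 6 of 8 litters and P for tRNA-Tyr-GTA was 0.0313 (adjusted P = 0.188, exact permutation test).

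The 8 CT litters can be read pair by pair. For tRNA-Tyr-GTA, litter 49K had 60.3 RPM in the PR and 19.9 in the CT littermate, litter 35F 51.6 and 23.7, and litter 57P 101.387 and 71.7. At the other end, litter 47I had 58.9 and 55.2, and litter 45L 36.5 and 46.2. Among these 5 litters, the level in the CT littermate thus ran from 19.9 in litter 49K to 71.7 in litter 57P, and the latter lay above the PR littermates of the other litters named.

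In PR litters, the PRPR littermate was higher in 6 of 9 litters for tRNA-Tyr-GTA (mean log2 difference 0.14, SE 0.29, exact sign-flip permutation test, P = 0.641), in 6 of 9 for tRNA-Trp-CCA (0.05, SE 0.39, P = 0.918) and in 5 of 9 for tRNA-Phe-GAA (0.26, SE 0.41, P = 0.516). The litters ran both ways, from -2.49 to 0.98 for tRNA-Trp-CCA. The lowest of these differences came from litter 59L, with 56.5 RPM in the PRPR and 317.894 in the PRCT littermate. The littermate differences of CT and PR litters were not told apart either (exact permutation of the litters' pre-weaning diet, P = 0.201 for tRNA-Tyr-GTA, 0.402 for tRNA-Trp-CCA and 0.672 for tRNA-Phe-GAA).

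**Figure D5:**
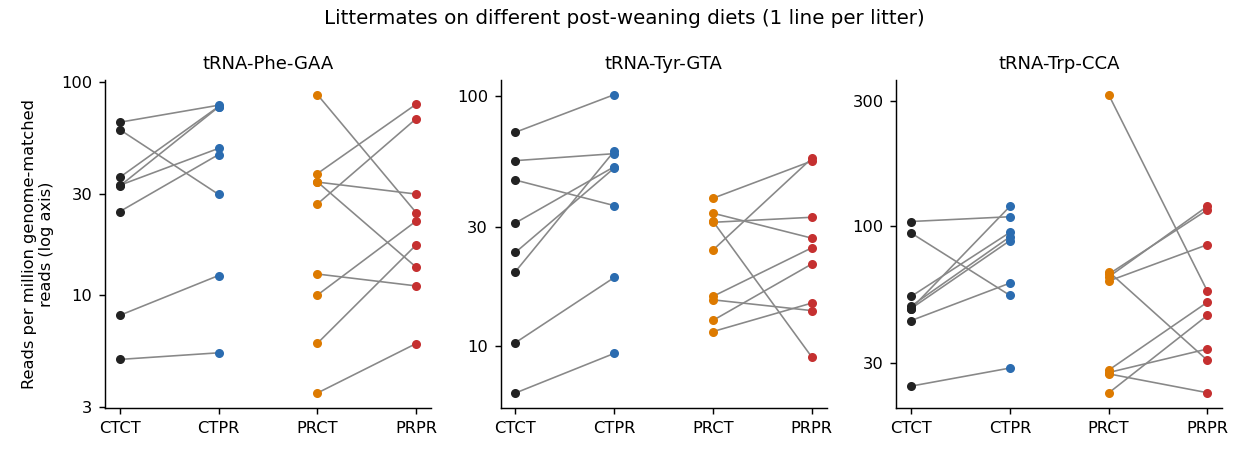
Level of each aromatic isoacceptor in littermates on control and on restricted diet after weaning, in RPM (reads per 1000000 reads that matched the genome, y axis, log scale). Each line is 1 litter, with the 8 CT and the 9 PR litters drawn apart. In CT litters 7 of the 8 lines go up for each isoacceptor, whereas the lines of PR litters cross. As a share of tRNA reads (not drawn), the PR littermate was higher in 4 of 8 CT litters for tRNA-Phe-GAA, 4 for tRNA-Tyr-GTA and 1 for tRNA-Trp-CCA.

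Littermates also tended to lie on the same side of their group means in log2 RPM, in 15 of 17 pairs for tRNA-Phe-GAA, 14 for tRNA-Trp-CCA and 13 for tRNA-Tyr-GTA. The correlation of these deviations over the 17 pairs was 0.71, 0.40 and 0.69 in that order, given as a description.

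The isoacceptors whose share of tRNA reads went most like that of each member were sought among the 43 others with reads in all 38 mice, by Spearman's rho over the mice and as a description only, because all shares of a mouse come from 1 library and 1 total. For tRNA-Phe-GAA they were tRNA-Arg-TCT (rho 0.882), tRNA-Arg-TCG (0.849) and tRNA-Arg-ACG (0.840). For tRNA-Trp-CCA they were tRNA-Arg-ACG (0.798), tRNA-Met-CAT (0.772) and tRNA-Arg-TCG (0.770), and for tRNA-Tyr-GTA tRNA-Lys-TTT (0.697), tRNA-Cys-GCA (0.681) and tRNA-Leu-TAA (0.664). None of the 3 aromatic isoacceptors was among the closest 3 of another. Between them rho was 0.677 for phenylalanine and tryptophan, 0.608 for tyrosine and tryptophan and 0.550 for phenylalanine and tyrosine.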

How the data were processed

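Small RNA of epididymal sperm was sequenced from 38 mice. Per the labels and the study, SPORTS annotated the reads against mm10 and databases of small RNA, and the authors deposited the read count of each class and class member per mouse, with no normalisation and no pooling. The database versions are not given in the sources used here. A row missing from a table was taken as 0 reads. The isoacceptor row already includes its 5' and 3' end rows, whereas CCA ends form a separate class. Class totals did not add up to the genome-matched reads in 4 mice (35F2, 47I1, 31A3 and 08G5), so tRNA totals were summed over isoacceptors.

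Counts of the 54 isoacceptors with at least 1 read entered the quasi-likelihood test glmQLFTest of edgeR 4.0.16 under R 4.3.3 (all groups in 1 fit, reads matching the genome as library size, Benjamini-Hochberg adjustment over all 54), and the 230 rows by end likewise. Shares and littermate differences were tested by permutation with scipy 1.17.1 (Python 3.11.15, pandas 2.3.3, numpy 2.4.6). DESeq2 1.42.0 was an alternative. Scripts were tested on simulated data. Other alternatives covered the library size, filters, the opposite grouping of litter 47I, leaving out mice and a litter block. The members, the amino acid lists and the miRNA marker lists were chosen with earlier results of these data known. Named besides the members were the 3 isoacceptors most like each, the amino acid lists, tRNA-Gly-GCC and mitochondrial tRNA.

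Mouse names give the litter, and littermates share a dam, so litter pairs the samples. Over 44 isoacceptors, the deviations of littermates from their group means correlated at 0.0115 to 0.824 (median 0.46, 17 pairs), above 0.1 in 14 pairs. With at least 4465281 matched reads per mouse, counting error is small for tRNA-Trp-CCA, but tRNA-Phe-GAA rests on as few as 7 reads. Intervals of single shares cover counting error only. No 2 mice of a group had counts within sampling noise of each other (smallest chi-square per degree of freedom 140).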

Additional observations from a re-analysis of the deposited data

Results flagged for a closer look

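Dixon's 95% limit was applied to 36 sets of 4 diet groups by 3 isoacceptors and 3 measures. The measures were RPM (reads per 1000000 genome-matched reads), share of tRNA reads and 5' end share. In 9 sets, 1 mouse lay farther from the others than the limit allows. The limit is passed in about 1 in 20 sets for independent, normally distributed values. These values are often skewed and the sets share mice and reads, so the 9 cannot be set against that rate.

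Mouse 59L1 (PRCT) was apart for tRNA-Trp-CCA, with 317.894 RPM (next mouse 67.2) and 0.129% of tRNA reads (next 0.0580%), and for tRNA-Phe-GAA, with 87.6 RPM (next 37.3). Of its 2420 tRNA-Trp-CCA reads, 2234 were named for neither end. Its tRNA-Trp-CCA level was 5.73 times the median of the 38 mice, place 4 among 44 isoacceptors, whereas tRNA-Phe-GAA was at 2.94 times, tRNA-Tyr-GTA at 1.25 times and the median isoacceptor at 1.79 times. tRNA made up 24.6% of its genome-matched reads, the second highest value, and it had the highest level of all mice for 12 of the 44 isoacceptors. Without it, tRNA-Trp-CCA made up 0.0439% ± 0.00776 (SD, n = 8 mice) of the tRNA reads of the PRCT group.

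The littermates 57P3 (CTCT) and 57P1 (CTPR) had the highest tRNA-Tyr-GTA shares, 0.112% (next 0.0407%) and 0.0779% (next 0.0399%). Relative to the median of all mice, tRNA-Tyr-GTA was the highest of the 44 isoacceptors in 57P3 (2.64 times) and at place 2 in 57P1 (3.73 times).

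For the 5' end share of tRNA-Phe-GAA, mouse 07C3 (CTCT) was apart with 42.9% (next 15.6%), mouse 14A4 (PRCT) with 35.0% (next 6.58%) and mouse 02A8 (CTPR) with 10.53% (next 2.77%). In 07C3 this was 3 of 7 reads and in 14A4 it was 7 of 20. The level of tRNA-Phe-GAA in 07C3 was 1.08 RPM (95% counting interval 0.436 to 2.23), 0.0363 times the median of all mice and the last of 44 isoacceptors there. For the 5' end share of tRNA-Tyr-GTA, mouse 49K3 (CTPR) was apart with 62.5% (next 54.4%).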

How the results depend on the processing

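Over 97 results and 1068 alternative values, 980 kept their direction and 88 changed it. No alternative brought a member under an adjusted P of 0.05 or took one out, and all values that changed direction were differences that had not passed. The cause of a change was not tested where the setting does not show it.

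For log2 fold changes, DESeq2 with its own size factors gave -0.0137 (tRNA-Phe-GAA) and -0.12 (tRNA-Tyr-GTA) for PRPR against PRCT and -0.13 (tRNA-Phe-GAA) for PRPR against CTCT, and edgeR with TMM gave -0.0483, -0.13 and -0.20 for the same. Summed tRNA reads as library size gave -0.0382 (tRNA-Trp-CCA, PRCT against CTCT), -0.26 (tRNA-Phe-GAA, PRPR against CTCT) and 0.0439 (tRNA-Trp-CCA, PRPR against PRCT). Without litter 47I the values were 0.0315 (tRNA-Tyr-GTA, PRPR against CTCT) and 0.17 (tRNA-Phe-GAA, PRCT against CTCT). With the opposite grouping of litter 47I, the 5' end row of tRNA-Phe-GAA was at -0.13 in the CTPR and -0.25 in the PRCT group against the CTCT group. For 5' shares among rows that name an end, the differences were 0.408 (tRNA-Tyr-GTA, PRPR against CTCT), 2.68 (tRNA-Phe-GAA, PRPR against PRCT) and 6.26 percentage points (tRNA-Trp-CCA, CTPR against CTCT).

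With litter as replicate block, the log2 fold change of tRNA-Trp-CCA between PRPR and PRCT was 0.11. In CT litters the blocked values were 0.49 for tRNA-Phe-GAA, 0.48 for tRNA-Trp-CCA and 0.64 for tRNA-Tyr-GTA (edgeR, adjusted P = 0.160, 0.158 and 0.109). The block changed no adjusted call. It took tRNA-Tyr-GTA in CTPR under an unadjusted P of 0.05 (P = 0.0254 in place of 0.0528), and moved unadjusted calls over all isoacceptors from 19 to 21 in CTPR against CTCT and from 0 to 1 in PRPR against PRCT. It changed no other call. In shares of tRNA reads, littermate pairing gave differences of -0.00143 (tRNA-Phe-GAA), -0.00194 (tRNA-Tyr-GTA) and -0.00553 (tRNA-Trp-CCA) percentage points in CT litters and -0.0022 for tRNA-Trp-CCA in PR litters.

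Shares also changed direction without tRNA-Gly-GCC in the total (-0.000913 for tRNA-Tyr-GTA and -0.00717 for tRNA-Trp-CCA in PRPR against PRCT, 0.00584 for tRNA-Trp-CCA in PRCT against CTCT), as mean log2 shares (0.0330 for tRNA-Phe-GAA and 0.0539 for tRNA-Trp-CCA in PRPR against CTCT), with the opposite grouping (0.000101) or without litter 47I (0.00184, both tRNA-Trp-CCA in PRPR against CTCT), and without the mice 08G5, 31A3, 35F2 and 07C3, a set taken from earlier work that includes 07C3, whose totals add up, and not 47I1, whose totals do not (-0.000128 for tRNA-Trp-CCA in PRPR against PRCT, -0.00362 for tRNA-Tyr-GTA and -0.00471 for tRNA-Trp-CCA in CTPR against CTCT).

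Leaving out each mouse in turn, the log2 fold changes that turned ranged, against CTCT, from -0.49 (without 59L1) to 0.17 (47I1) for tRNA-Phe-GAA and -0.19 (59L1) to 0.71 (47I1) for tRNA-Trp-CCA in PRCT, and from -0.18 (40H3) to 0.32 (47I1) for tRNA-Phe-GAA and -0.29 (46I3) to 0.12 (57P3) for tRNA-Tyr-GTA in PRPR. Between PRPR and PRCT they ranged from -0.15 (40H3) to 0.59 (59L1) for tRNA-Phe-GAA and -0.30 (36K3) to 0.58 (59L1) for tRNA-Trp-CCA. Shares ranged in CTPR from -0.00113 (57P1) to 0.0055 (57P3) for tRNA-Phe-GAA, -0.00537 (57P1) to 0.00885 (57P3) for tRNA-Tyr-GTA and -0.00429 (07C3) to 0.00378 (09H7) for tRNA-Trp-CCA. For tRNA-Trp-CCA they ranged from -0.0119 (59L1) to 0.00132 (09H7) in PRCT, -0.00486 (07C3) to 0.00321 (09H7) in PRPR, and -0.0022 (36K3) to 0.0114 (59L1) between PRPR and PRCT.

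The members' lowest adjusted P without 1 mouse was 0.0728 (edgeR). Over all 54 isoacceptors the count of adjusted calls in CTPR against CTCT went from 0 to 17 without 45L3, 15 without 47I1 and 14 without 09H5, none of them a member. With edgeR's TMM, unadjusted calls there went from 19 higher to 0 higher and 4 lower, and with summed tRNA reads to 0 and 2. DESeq2 with its own size factors called 3 after adjustment, all lower and none a member (tRNA-Arg-CCG, tRNA-Leu-TAG and tRNA-Lys-CTT, named after their values were seen). Reads per mouse limit the 5' end shares of tRNA-Phe-GAA and tRNA-Trp-CCA, and 9 or 10 mice a group limit the rest.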
